A study of Mus musculus with 3 samples.

Results

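The mitochondrial ribosomal protein genes were followed in apoptotic bodies (ABs) of the osteoclast lineage. Members were all protein_coding genes of the GENCODE M21 annotation whose symbol begins with Mrpl or Mrps, and the counts of their transcripts in the deposited mRNA table were summed per gene. This gave 78 genes of 12392 protein-coding genes with a listed transcript, 49 named for the large and 29 for the small subunit, with 300 listed transcripts on 17 chromosomes. Every member had reads in every library, between 131 and 4325 over the 3 libraries with a median of 997.5, so that all 78 passed the minimum of 20 reads that 10999 protein-coding genes passed.

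ABs are the membrane-bound fragments that dying cells shed. The study sequenced poly-A RNA from ABs of bone marrow macrophages (BMM-ABs), preosteoclasts (pOC-ABs) and mature osteoclasts (mOC-ABs), with 1 library of each and no replicates, so no difference below can be set against a spread between samples. All cells came from the bone marrow of 11-week-old C57BL/6 mice and were first grown as macrophages in M-CSF at 50 ng/ml for 72 h. pOC and mOC then received RANKL at 100 ng/ml with M-CSF at 30 ng/ml, for 24 h and for 72 h or more. These conditions follow the sample labels, in which all 3 cell types, BMM included, were given alendronate at 500 μM for 12 h to form ABs. The methods instead name staurosporine, a longer time in RANKL for mOC, a shorter macrophage culture and M-CSF at 50 ng/ml with RANKL. Sample titles name the cells and the series names ABs, and the libraries are described here as ABs. Where 3 values stand in a row below, they are those of BMM-ABs, then pOC-ABs, then mOC-ABs. The mRNA table held 9100082, 7387317 and 7705592 reads. Genes whose symbol begins with mt- took 2.9%, 5.76% and 2.87% of them. Summed over 7 macrophage markers the level was 5774, 2764 and 1795 reads per 1000000 mRNA reads (RPM). Over 9 osteoclast markers with reads it was 345, 581 and 1870, the order that the labels give. Csf1r (1085, 357 and 506 RPM), Cd68 (729, 649 and 656 RPM) and Itgb3 (6, 3 and 0 reads) departed from that order. The other macrophage and osteoclast markers with reads followed it. Markers of osteoblast and stromal cells, B and T lymphocytes and endothelium summed to at most 6.1 RPM for any of these cell types in any library.

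Mitochondrial ribosomes make the few proteins that the mitochondrial genome encodes, all of them core subunits of the respiratory chain and ATP synthase. Their RNAs come from the mitochondrial genome, but each of their proteins is encoded in the nucleus, translated in the cytosol and imported. One group of these proteins descends from the bacterial ribosome and another was added in the mitochondrial lineage. Osteoclasts are rich in mitochondria, which supply the ATP for proton pumping during bone resorption.

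The promoters of the members that moved furthest show what many members share beyond their names. Windows of 300 bases from RefSeq (GRCm38.p6), 250 before the start site and 50 after it, were found for 69 of the 78 members. Capitals mark matches to CCGGAAG, the core bound by ETS factors such as GABP, to GCGCATG, contained in the site of nuclear respiratory factor NRF1, and to AAGATGG, contained in the site of YY1, or to their reverse complements. All 3 letter strings were searched on both strands, and the ETS and YY1 strings can share 3 bases, but did so in 0 of the members. Mrps12 (chr7:28741772-28742071, minus strand), Mrpl52 (chr14:54426659-54426958, plus strand), Mrpl22 (chr11:58171414-58171713, plus strand) and Mrpl53 (chr6:83108858-83109157, plus strand) are shown because their level passed 2-fold between ABs and their windows hold a match. Each is written 5′ to 3′ on the strand of its gene.
Mrps12: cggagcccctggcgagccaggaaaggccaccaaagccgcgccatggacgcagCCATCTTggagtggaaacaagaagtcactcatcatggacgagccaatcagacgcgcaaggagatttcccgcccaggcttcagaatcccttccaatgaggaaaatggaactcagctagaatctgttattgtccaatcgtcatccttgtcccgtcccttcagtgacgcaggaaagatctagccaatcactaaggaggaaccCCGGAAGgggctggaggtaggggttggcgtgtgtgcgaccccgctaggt
Mrpl52: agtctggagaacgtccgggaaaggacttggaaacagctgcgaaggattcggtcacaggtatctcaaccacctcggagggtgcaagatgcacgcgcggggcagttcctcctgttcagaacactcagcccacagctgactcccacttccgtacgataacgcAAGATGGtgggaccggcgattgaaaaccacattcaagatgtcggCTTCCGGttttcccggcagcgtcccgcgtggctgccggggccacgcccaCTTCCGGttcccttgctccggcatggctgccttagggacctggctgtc
Mrpl22: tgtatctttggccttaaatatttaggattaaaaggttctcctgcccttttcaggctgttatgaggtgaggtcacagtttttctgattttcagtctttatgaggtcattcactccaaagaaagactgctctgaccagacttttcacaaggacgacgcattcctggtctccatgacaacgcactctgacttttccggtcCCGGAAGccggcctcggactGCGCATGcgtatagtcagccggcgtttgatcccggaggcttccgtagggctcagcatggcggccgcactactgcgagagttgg
Mrpl53: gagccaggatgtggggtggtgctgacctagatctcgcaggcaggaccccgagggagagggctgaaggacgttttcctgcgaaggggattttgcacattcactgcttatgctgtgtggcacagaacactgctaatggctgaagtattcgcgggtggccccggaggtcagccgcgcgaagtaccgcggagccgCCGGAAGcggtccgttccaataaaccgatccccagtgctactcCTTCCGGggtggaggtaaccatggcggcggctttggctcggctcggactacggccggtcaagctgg
In Mrpl22 the ETS string began 53 bases and the NRF1 string 33 bases upstream of the start. Mrpl53 had ETS strings 59 and 16 bases upstream, and Mrpl52 had one 47 bases upstream, another just past the start, and a YY1 string 91 bases upstream. Mrps12 carried an ETS string at the start itself and a YY1 string 198 bases upstream. Of the other members past 2-fold, Mrps6 and Mrps36 held none of the strings in their windows.

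Across the family the ETS string was present for 26 of 69 members (37.7%), against 13.4% of 16522 protein-coding genes with windows of the same length. NRF1 strings were found for 8 members (11.6% against 5.57%) and YY1 strings for 13 (18.8% against 7.26%). At least 1 of the 3 was found for 38 members, 55.1% against 23.4%. These are counts of letters in a fixed window, with no measure of binding.

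Many members also share a promoter region with a neighbour. A protein-coding gene starting in the opposite direction within 1000 bp was counted for 19 of the 78 members (24.4%), against 7.23% of all 21951 annotated protein-coding genes. The count left out the members Mrpl46 (minus strand, from 78783531) and Mrps11 (plus strand, from 78783119), whose 5′ ends overlap, so it is too low. Their log2 ratios to BMM-ABs were 0.71 and 0.38 in pOC-ABs, and the partner comparison does not hold them. Other members that overlap a gene on the opposite strand, such as Mrpl13, Mrpl18 and Mrps7, were not counted or compared either. Whether the 5′ ends overlap in those pairs was not examined. The share of all annotated genes may be too low for the same reason. Mrps12 faces Sars2, the mitochondrial seryl-tRNA synthetase, with 172 bp between the starts. Mrpl32 faces the proteasome subunit Psma2 at 75 bp, and Mrpl2 faces the kinesin light chain Klc4 at 207 bp. Reads were listed for 18 of these partners, and they are compared with their members further below.

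Levels were compared between members as FPKM summed over transcripts, which scales reads to the length of the transcript and to the mRNA total. Mrps6, Mrps21, Mrpl12, Mrpl30 and Mrpl52 had the highest mean. Mrps6 stood at 113 FPKM in BMM-ABs and at 156 in pOC-ABs, with 249 in mOC-ABs. Mrps21 gave 115, 173 and 172, and Mrpl12, the stalk protein that occurs in several copies per ribosome, gave 124, 140 and 148. At the other end lay Mrpl47, Mrpl32, Mrps36, Mrpl35 and Mrps31, with Mrpl47 at 4.49, 6.9 and 4.97 FPKM. Although most of these proteins enter the ribosome as single copies, the highest member exceeded the lowest 27.5, 25 and 50.2 times.

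**Figure D1:**
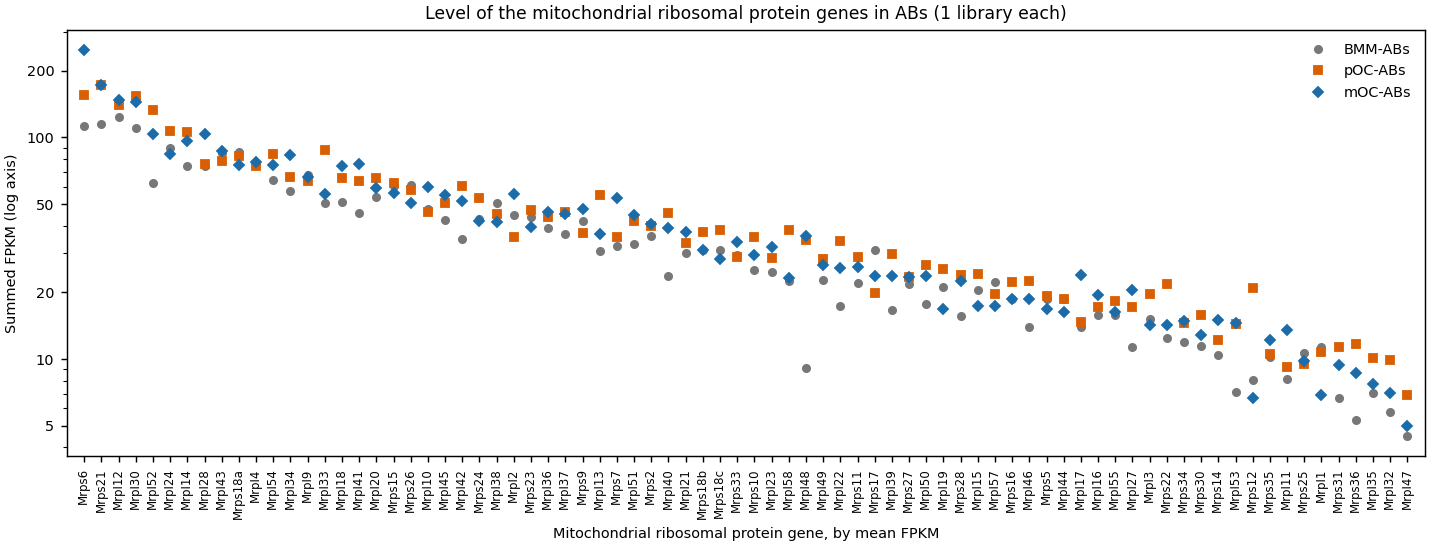
Summed FPKM (log axis) of the 78 members in BMM-ABs (grey circles), pOC-ABs (orange squares) and mOC-ABs (blue diamonds), 1 library each, ordered by mean FPKM. The order runs from Mrps6 (113, 156 and 249) to Mrpl47 (4.49, 6.9 and 4.97), and symbols of one gene usually lie close together.

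The order itself was similar in the 3 ABs. Over the 78 members the Spearman coefficient of FPKM was 0.942 for pOC-ABs with BMM-ABs, 0.95 for mOC-ABs with BMM-ABs and 0.951 for mOC-ABs with pOC-ABs. These values are across genes, which are not independent replicates and which share their lengths and annotation. The median member had 27.4, 35 and 31.6 FPKM. Neighbours in the order, such as Mrps21 and Mrpl12, changed places between ABs.

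As a family the members held more of the mRNA reads in both osteoclast-lineage ABs than in BMM-ABs. BMM-ABs held 30958 member reads or 0.34% of mRNA reads (95% interval 0.336 to 0.344), pOC-ABs 30171 or 0.408% (0.404 to 0.413) and mOC-ABs 30990 or 0.402% (0.398 to 0.407). The intervals are exact binomial ones and cover counting error only, since the reads carry no molecular identifiers. The ratio of the summed reads per total was 1.2 for pOC-ABs against BMM-ABs (1.18 to 1.22), 1.18 for mOC-ABs against BMM-ABs (1.16 to 1.2) and 0.985 for mOC-ABs against pOC-ABs (0.969 to 1). Of the total of the mRNA and lncRNA tables together the members held 0.243%, 0.254% and 0.268%, so on that total mOC-ABs and not pOC-ABs came highest. In bulk ABs, the number of fragments that carry these RNAs and the amount of them per fragment cannot be told apart.

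Gene by gene, pOC-ABs had the highest RPM for 47 members, mOC-ABs for 25 and BMM-ABs for 6, and BMM-ABs had the lowest for 56. In pOC-ABs against BMM-ABs 68 members were higher and 10 lower. Their median log2 ratio was 0.29 (quartiles over members 0.11 and 0.58), against -0.05 over all 10999 protein-coding genes tested. In mOC-ABs against BMM-ABs 60 were higher and 18 lower, with a median of 0.23 (quartiles 0.02 and 0.44) against -0.09. Both comparisons use the same BMM-AB library. Between mOC-ABs and pOC-ABs 27 were higher and 51 lower, and the median was -0.14 (quartiles -0.30 and 0.08) against -0.05. Genes are not replicates, so these quartiles describe the members and not the spread between ABs of a cell type. With the total of both tables as the divisor the 3 medians became 0.09, 0.13 and -0.04 and those of all genes -0.24, -0.19 and 0.05, which left the members 0.34, 0.32 and -0.09 from the median gene, as before.

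**Figure D2:**
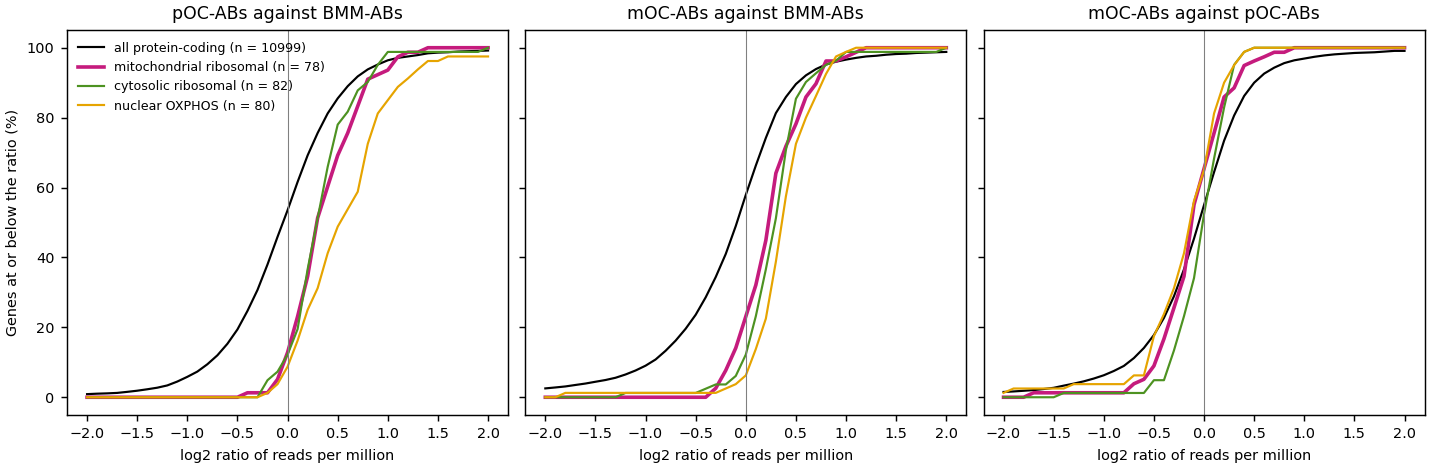
Share of genes (%) at or below a given log2 ratio of RPM, for pOC-ABs against BMM-ABs, mOC-ABs against BMM-ABs and mOC-ABs against pOC-ABs, in all protein-coding genes (black), mitochondrial ribosomal (pink), cytosolic ribosomal (green) and nuclear OXPHOS genes (yellow). The pink curve lies to the right of the black one in the first and second panels, with medians of 0.29 and 0.23 against -0.05 and -0.09, and near it in the last.

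Ratios beyond counting error in either direction were common among members and all genes alike. In pOC-ABs against BMM-ABs they numbered 50 of 78 members and 6451 of 10999 genes. In mOC-ABs against BMM-ABs they numbered 38 and 6364, and in mOC-ABs against pOC-ABs 33 and 5635. In pOC-ABs against BMM-ABs the 95% interval lay above 1 for 49 members, where 25.4% of protein-coding genes did so, and below 1 for 1 member, Mrpl2, where 33.2% did so. In mOC-ABs against BMM-ABs it lay above 1 for 35 members (background 22.8%) and below 1 for 3, namely Mrpl19, Mrpl38 and Mrps18a (background 35%). For mOC-ABs against pOC-ABs it lay above 1 for 11 (background 22.8%) and below 1 for 22 (background 28.5%), so the share below was near that of all genes. On the total of both tables the higher and lower counts became 28 and 9, 28 and 9, and 17 and 14, and in the last comparison the balance turned. The median of all genes moved on that total too, to -0.24, -0.19 and 0.05. No background counts on it are given here. These intervals compare the libraries and not the conditions.

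Put together per member, 26 had an interval above 1 in both comparisons with BMM-ABs, and 19 of those held 1 between mOC-ABs and pOC-ABs. A further 23 had one in pOC-ABs alone, and 21 members were above BMM-ABs in pOC-ABs and then below pOC-ABs in mOC-ABs. The 10 members Mrpl10, Mrpl11, Mrpl18, Mrpl2, Mrpl28, Mrpl34, Mrpl41, Mrps6, Mrps7 and Mrps9 were higher in mOC-ABs than in either other library. For 16 members no interval excluded 1 in any comparison, among them Mrpl4, Mrpl9, Mrps2 and Mrps5. The comparisons share libraries, so overlaps between them arise in any set of genes. The share of all genes with each of these courses is not given here, so the counts only sort the members.

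Changes past the 2-fold limit of the study were few. In pOC-ABs against BMM-ABs 5 members had a ratio above 2 (background 3.51%) and 0 a ratio below 0.5 (background 5.84%). In mOC-ABs against BMM-ABs the counts were 2 (background 3.38%) and 0 (background 9.03%), and in mOC-ABs against pOC-ABs they were 0 (background 2.99%) and 1 (background 6.29%). These counts depended on the basis. Divided by the total of both tables, only 1 member passed in each comparison, and with a pseudocount of 1 the counts were 2, 1 and 1. From protein_coding transcripts only, 10 passed in pOC-ABs against BMM-ABs (9 above 2 and 1 below 0.5), 7 in mOC-ABs against BMM-ABs and 2 between mOC-ABs and pOC-ABs. The background shares above belong to the mRNA total. Shares of all genes on the other bases are not given here, so those counts only describe the members.

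Mrps12, a protein of the decoding centre of the small subunit, had the widest swing. Its reads numbered 52, 110 and 35, or 5.71, 14.9 and 4.54 RPM. pOC-ABs were thus 2.61 times BMM-ABs (1.86 to 3.7) and 3.28 times mOC-ABs (2.22 to 4.94), while BMM-ABs and mOC-ABs lay within counting error of each other (0.795, 0.503 to 1.24). Its head-to-head partner Sars2 did not share this course, with 222, 166 and 209 reads and no interval that excluded 1.

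Mrps6, a protein of the platform of the small subunit, was the member with the highest ratio in mOC-ABs. Reads were 867, 976 and 1625, giving 95.3, 132 and 211 RPM. Relative to BMM-ABs the ratio was 1.39 (1.26 to 1.52) for pOC-ABs and 2.21 (2.04 to 2.41) for mOC-ABs, and each AB differed from the others beyond counting error. Slc5a3, the myo-inositol transporter gene, lies on the same strand within the Mrps6 locus, so that reads of overlapping parts could be assigned to either gene. It was lower in pOC-ABs, with 3437, 1919 and 3708 reads. Almost all Mrps6 reads were assigned to 1 protein-coding transcript, ENSMUST00000047429, which held 99%, 99.6% and 99.6% of them.

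Proteins of the large subunit also passed 2-fold in pOC-ABs. Mrpl52, found only in mitochondrial ribosomes, had 243, 411 and 342 reads (26.7, 55.6 and 44.4 RPM) and a ratio of 2.08 in pOC-ABs (1.77 to 2.45). Mrpl22, which lines the exit tunnel, had 103, 171 and 133 reads and a ratio of 2.05 (1.59 to 2.64). Both were higher in pOC-ABs than in mOC-ABs as well. Mrpl53, at the base of the stalk, had only 46, 75 and 79 reads and a ratio of 2.01 (1.37 to 2.97) in pOC-ABs, and of 2.03 (1.39 to 2.98) in mOC-ABs. Of the 5 members above 2 in pOC-ABs none had an interval wholly above 2. Mrpl53 overlaps Gm42688 on the same strand, so its small count also rests on how reads were shared out. Most Mrpl53 reads lay on a retained-intron transcript, with 43, 50 and 46, while the protein_coding transcript had 3, 25 and 33.

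Mrps36 carries a ribosomal symbol, but its product is now known as a subunit of the 2-oxoglutarate dehydrogenase complex. It had the fewest reads of the family, 31, 57 and 43, with ratios of 2.27 (1.44 to 3.63) and 1.64 (1.01 to 2.69) to BMM-ABs. A processed pseudogene, Mrps36-ps1, had 33, 43 and 35 reads, and near-identical copies make the assignment of reads between them uncertain.

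**Figure D3:**
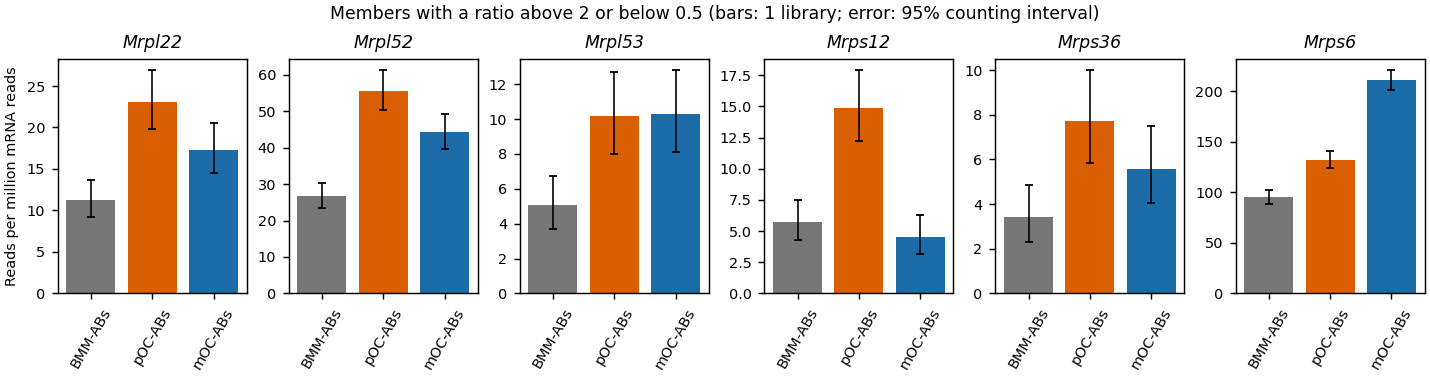
RPM of the 6 members with a ratio above 2 or below 0.5 in a comparison, by type of AB (bars, 1 library each; error bars, exact 95% counting intervals). Mrps12 reached 14.9 in pOC-ABs against 5.71 and 4.54, whereas Mrps6 reached 211 in mOC-ABs against 95.3 and 132.

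Just under the limit in pOC-ABs stood Mrpl40 and Mrpl39. Mrpl40, of the central protuberance, had 223, 342 and 313 reads and a ratio of 1.89 (1.59 to 2.25). Mrpl39, near the exit of the nascent chain, had 328, 494 and 403 reads and 1.86 (1.61 to 2.14). In mOC-ABs the highest ratios after Mrps6 and Mrpl53 were those of Mrpl27 (73, 91 and 117 reads, 1.89), Mrpl41 (309, 347 and 443, 1.69), Mrpl11 (213, 196 and 302, 1.67) and Mrpl52.

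Mrpl2, next to the peptidyl transferase centre, went against the family in pOC-ABs. Its reads were 369, 222 and 408, with a ratio of 0.741 in pOC-ABs (0.625 to 0.878) and 1.31 in mOC-ABs (1.13 to 1.51). The partner Klc4 ran the same course, with 832, 554 and 1032 reads. Mrpl19, a protein of the intersubunit face, was the member lowest in mOC-ABs relative to BMM-ABs, with 834, 769 and 553 reads and a ratio of 0.783 (0.702 to 0.873).

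Between mOC-ABs and pOC-ABs the lowest members after Mrps12 were Mrpl58, Mrpl33, Mrpl32 and Mrps22. Mrpl58, a peptidyl-tRNA hydrolase built into the large subunit that rescues stalled ribosomes, had 180, 197 and 124 reads, and pOC-ABs were 1.66 times mOC-ABs (1.32 to 2.09). Mrpl33 had 267, 353 and 223 reads, Mrpl32 152, 201 and 130, and Mrps22 147, 197 and 136, so that these genes peaked in pOC-ABs and came back to the BMM-AB level. The highest after Mrpl2 were Mrps6, Mrpl11, Mrpl28 (687, 576 and 820 reads), Mrps7 (548, 486 and 667) and Mrpl10 (723, 569 and 776).

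**Figure D4:**
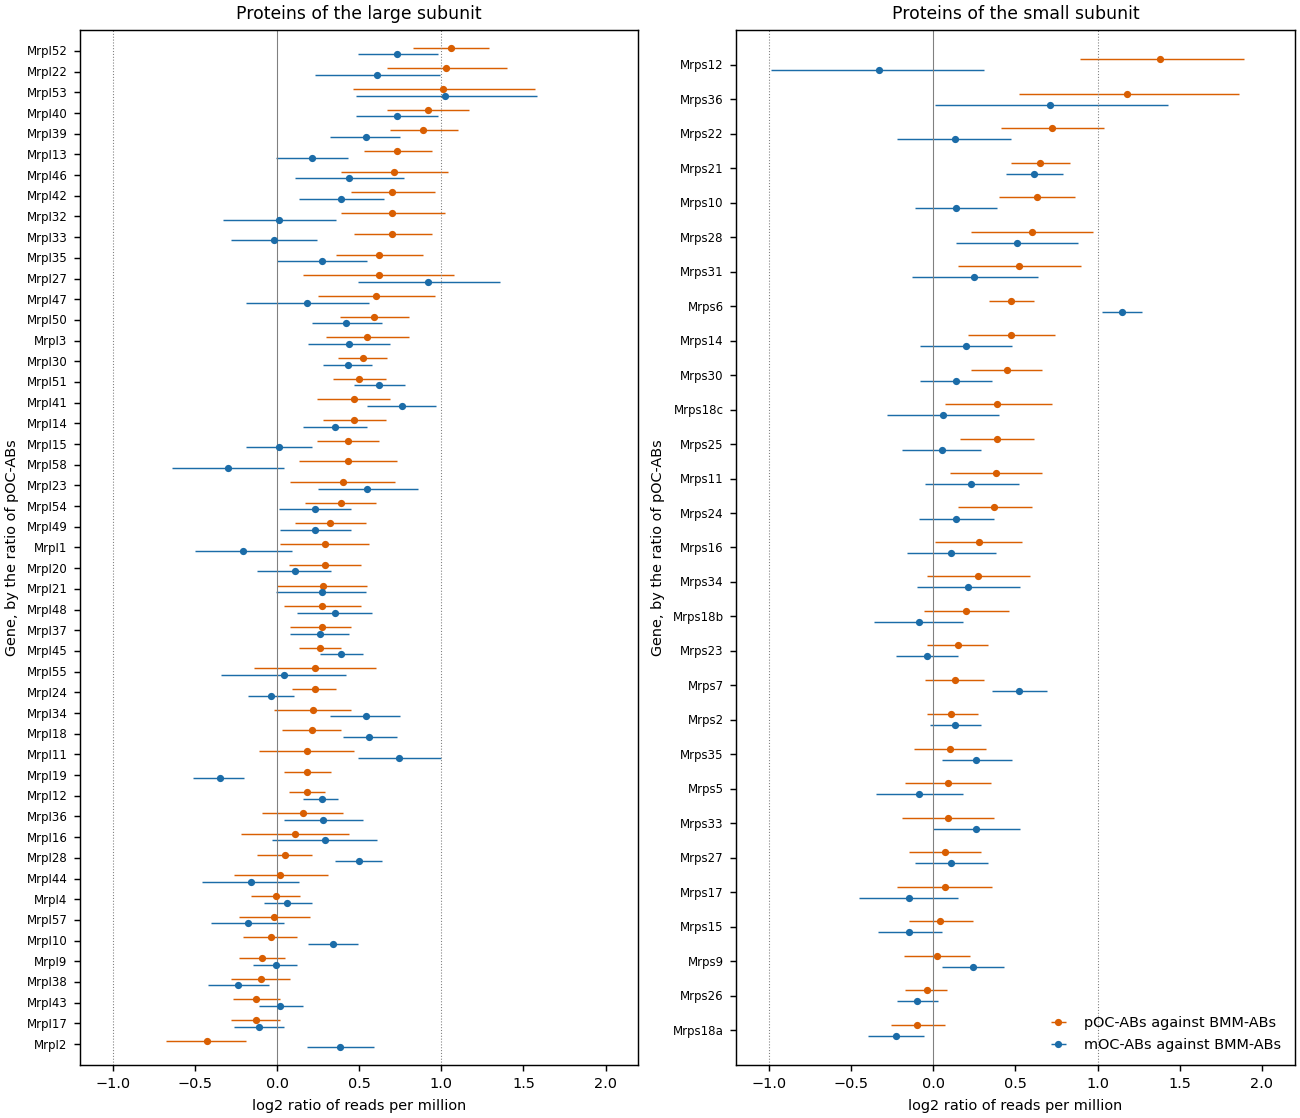
Log2 ratio of RPM of each member in pOC-ABs (orange) and mOC-ABs (blue) against BMM-ABs, for genes named for the large (left) and small subunit (right). Points are ratios of 1 library to 1 library, bars are exact 95% counting intervals and dotted lines mark 2-fold. Most orange points lie right of 0, with Mrpl2 at -0.43 and Mrps12 at 1.38 as the ends.

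The large and the small subunit were compared by the symbols of their genes. Medians were 0.29 for the 49 large-subunit and 0.28 for the 29 small-subunit genes in pOC-ABs against BMM-ABs, and 0.28 and 0.14 in mOC-ABs against BMM-ABs. From protein_coding transcripts only, they were 0.32 and 0.47 in the former comparison and 0.31 and 0.25 in the latter, so which comparison showed the wider gap depended on the transcripts counted. Their summed reads gave ratios of 1.21 (1.19 to 1.23) and 1.18 (1.15 to 1.22) in pOC-ABs, and 1.18 (1.16 to 1.21) and 1.18 (1.15 to 1.21) in mOC-ABs. The sorting follows the symbols, although the products of Mrps18a and Mrps30 are found in the large subunit. By the number in the symbol alone, 44 members were sorted as having a bacterial homologue and 34 as specific to mitochondria. The former had medians of 0.25 and 0.22 in pOC-ABs and mOC-ABs against BMM-ABs, and the latter 0.39 and 0.24. Mrps36, whose product belongs to the 2-oxoglutarate dehydrogenase complex, is among the 34 and was the highest of them in pOC-ABs, at 1.18.

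Inside the ribosome, the proteins of the stalk, which recruits the elongation factors, were Mrpl10, Mrpl11, Mrpl12, Mrpl53 and Mrpl54. All 5 intervals lay above 1 in mOC-ABs against BMM-ABs and 3 in pOC-ABs, with medians of 0.34 and 0.18. As a base for these small groups, 44.9% of all members and 22.8% of all genes lay above 1 in mOC-ABs. In pOC-ABs the shares were 62.8% and 25.4%. Of the 6 genes of the central protuberance, which holds the structural tRNA, 5 lay above 1 in each comparison (medians 0.45 and 0.50), the remaining one being Mrpl38. Around the exit of the nascent chain 6 of 8 lay above 1 for pOC-ABs and 4 for mOC-ABs, with Mrpl17 (846, 628 and 664 reads) and Mrpl44 (229, 189 and 173) among those that held 1 throughout. Mrpl45, which ties the ribosome to the inner membrane, had 927, 901 and 1026 reads and was above BMM-ABs in both.

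In the decoding site and head of the small subunit, Mrps12, Mrps10 and Mrps14 were above BMM-ABs in pOC-ABs and below pOC-ABs in mOC-ABs, while Mrps7 and Mrps9 were highest in mOC-ABs. For Mrps9 this holds for the reads of the gene: its protein_coding transcript held 44, 120 and 39 of them, and on that basis the log2 ratio of mOC-ABs to pOC-ABs turned to -1.68. The 3 descendants of bacterial protein S18 had different courses. Mrps18a had 707, 536 and 510 reads and was below BMM-ABs in mOC-ABs, whereas Mrps18b (254, 237 and 202) held 1 in both comparisons with BMM-ABs and Mrps18c (154, 164 and 136) was above 1 in pOC-ABs. Among 13 members mutated in human combined oxidative phosphorylation deficiency, all 13 ratios were above 1 in pOC-ABs (median 0.27), 8 of them beyond counting error, and 10 in mOC-ABs (median 0.13), 4 of them beyond it.

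Over all genes, transcript length moved with these ratios. The read-weighted mean transcript length of a member had a median of 1333 nt, against 2798 nt for all genes tested. Among the shortest 20% of genes, up to 1613 nt, which held 47 members, the median log2 ratio of all genes was 0.18 in pOC-ABs and 0.07 in mOC-ABs against BMM-ABs. It was -0.19 and -0.17 in the longest 20%. The members in the shortest class had 0.37 and 0.26, the 12 members of the next class 0.28 and 0.22 against -0.01 and -0.07, and the 11 of the middle class 0.29 and 0.20 against -0.08 and -0.13. The 5 members of the fourth class had 0.43 and 0.14 against -0.12 and -0.12, and the 3 in the longest class 0.18 and -0.11. Over the 78 members the Spearman coefficient of length with the log2 ratio was -0.27 in pOC-ABs and -0.32 in mOC-ABs against BMM-ABs. Over all genes tested it was -0.23 and -0.15. The part of length in the family's ratios was not tested further.

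Against BMM-ABs, the partners across shared promoters had lower median ratios than their members. In pOC-ABs against BMM-ABs the 18 partners with reads had a median of -0.14, while their members had 0.35. For the partners 4 intervals lay above 1 and 7 below (background 25.4% and 33.2%). In mOC-ABs against BMM-ABs the medians were -0.01 and 0.23. Between mOC-ABs and pOC-ABs the order turned, with 0.04 for the partners and -0.13 for their members. Single pairs did keep step. Psma2 had 666, 881 and 696 reads beside 152, 201 and 130 for Mrpl32, and log2 ratios of 0.70 each in pOC-ABs. Others parted, as Hira, a histone chaperone, with 962, 492 and 743 reads beside 223, 342 and 313 for Mrpl40, and Ncapd2, a condensin subunit, with 2995, 1652 and 1990 reads beside 583, 670 and 761 for Mrpl51. No strand was stated for the library kit or the counting, so reads of overlapping and antisense genes cannot be told apart, and 26 members overlap another protein-coding gene.

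Other parts of mitochondrial translation varied. As background to the counts of intervals here and below, 25.4% of all genes lay above 1 and 33.2% below in pOC-ABs against BMM-ABs. In mOC-ABs against BMM-ABs 22.8% lay above 1 and 35% below. Of 5 mitochondrial ribosomal proteins with other symbols, Ptcd3, Chchd1, Dap3 and Gadd45gip1 lay above 1 in pOC-ABs against BMM-ABs. Ptcd3 had 305, 454 and 342 reads, and Dap3, a GTP-binding protein of the small subunit, had 594, 603 and 545. Aurkaip1, with 519, 378 and 288 reads, was below BMM-ABs in mOC-ABs. Of 12 translation factors with reads 3 lay above 1 and 0 below in pOC-ABs (median 0.12), namely the elongation factors Tufm (562, 662 and 589), Tsfm (273, 276 and 324) and Gfm1 (737, 743 and 812). The same 3 factors were the ones above 1 in mOC-ABs, where Mtif2 (226, 163 and 140) and Mtif3 (152, 112 and 75), the initiation factors, were below it.

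For 23 assembly factors the median was -0.05 in pOC-ABs and -0.08 in mOC-ABs against BMM-ABs, close to that of all genes, with 1 interval above and 4 below in pOC-ABs. The 17 mitochondrial aminoacyl-tRNA synthetases had medians of -0.13 and 0.10, with 3 above and 7 below in pOC-ABs and 3 above and 3 below in mOC-ABs. At the ends of the list, Wars2, which charges the mitochondrial tryptophan tRNA, had 335, 128 and 112 reads, and Mars2, which charges the mitochondrial methionine tRNA, had 0, 152 and 80. Of 16 genes of mitochondrial RNA handling and transcription with reads, 8 lay above 1 and 2 below in pOC-ABs (median 0.28). Hsd17b10, a subunit of mitochondrial RNase P, had 474, 601 and 1360 reads, and Polrmt, the mitochondrial RNA polymerase, had 343, 169 and 182.

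Nuclear genes for the machinery that mitochondrial translation completes were further up. Over 80 nuclear OXPHOS genes tested the median was 0.53 in pOC-ABs and 0.38 in mOC-ABs against BMM-ABs, with 12 and 1 above 2-fold (background 3.51% and 3.38%). Cytosolic ribosomal protein genes, 82 tested, had medians of 0.29 in both. As shares of mRNA reads the OXPHOS genes took 0.834%, 1.07% and 1.06% and the cytosolic ribosomal proteins 3.11%, 3.65% and 3.79%. The 13 protein-coding genes of the mitochondrial genome, whose transcripts these ribosomes read, summed to 2.13%, 1.87% and 1.72% of mRNA reads, and to 1.52%, 1.17% and 1.15% of the mRNA and lncRNA reads together. Singly they went both ways in pOC-ABs against BMM-ABs, with 6 intervals above 1, 5 below and a median log2 ratio of -0.02, from mt-Nd6 at -1.31 to mt-Atp8 at 1.47. In mOC-ABs against BMM-ABs 1 lay above and 9 below, with a median of -0.19.

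A separate readout of the same loci is which of a gene's transcripts held the reads. Transcripts annotated as protein_coding took 87.5% (87.1 to 87.9), 90.6% (90.3 to 91) and 91.4% (91.1 to 91.7) of member reads, against 90.2%, 91.5% and 91.9% over all protein-coding genes. Retained-intron transcripts took 7.88%, 5.35% and 4.53%, against 5.8%, 4.95% and 4.39%. The retained-intron share was thus highest in BMM-ABs and lowest in mOC-ABs, in the members as in all genes.

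For most members the mix of transcripts was steady. The change between 2 libraries was measured as the percentage of a gene's reads that moved from one transcript to another, for genes with at least 50 reads in each library and more than 1 transcript. The median was 6.91% over 69 members in pOC-ABs against BMM-ABs (10.1% over all genes), 7.12% over 68 in mOC-ABs against BMM-ABs (10%) and 5.09% over 69 in mOC-ABs against pOC-ABs (9.53%). Reads on alike transcripts are shared out by an estimate, and the intervals do not cover that step.

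Mrpl2 showed the largest shift, 94.9% of its reads in pOC-ABs against BMM-ABs. ENSMUST00000002844 had 344, 6 and 82 reads, ENSMUST00000113429 0, 132 and 319, and ENSMUST00000113430 0, 73 and 0. All 3 are protein_coding, and their annotated lengths, 1031, 998 and 991 nt, differ little. In Mrpl38 a retained-intron transcript, ENSMUST00000142550, had 486, 67 and 128 reads while the protein_coding ENSMUST00000106439 had 1, 334 and 248. Mrpl38 as a gene had 586, 443 and 421 reads, or 64.4, 60 and 54.6 RPM. Its ratio to BMM-ABs was 0.931 (0.821 to 1.06) in pOC-ABs and 0.848 (0.747 to 0.963) in mOC-ABs, so only the latter was beyond counting error.

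In Mrpl48 the shift went the opposite way. Its protein_coding transcript ENSMUST00000150042 had 292, 110 and 127 reads, and ENSMUST00000107053, annotated for nonsense-mediated decay, had 0, 175 and 187. Gene totals were 310, 304 and 335 reads, or 34.1, 41.2 and 43.5 RPM, with ratios to BMM-ABs of 1.21 and 1.28. Because the decay-class transcript is 834 nt and the protein_coding one 4285 nt long, summed FPKM rose further, from 9.12 to 34.6 and 36. Mrpl3 moved towards its longest protein_coding transcript, ENSMUST00000035177, with 60, 168 and 209 reads, away from ENSMUST00000142424 of the decay class with 79, 0 and 0.

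Mrpl58 and Mrps10 completed the 6 with the largest shifts, at 44.2% and 42.7% between mOC-ABs and pOC-ABs. In Mrpl58 a retained-intron transcript had 21, 62 and 2 reads and a decay-class transcript 3, 4 and 30. In Mrps10 the protein_coding ENSMUST00000060752 had 18, 105 and 4 reads and the protein_coding ENSMUST00000119945 had 65, 66 and 119, while a retained-intron transcript, ENSMUST00000135418, had 54, 96 and 36. Most reads lay outside protein_coding transcripts in at least 1 library for Mrpl38, Mrpl48, Mrpl53, Mrpl58, Mrps34 and Mrps9. Mrps34 kept 136, 132 and 119 of its 169, 166 and 166 reads on a decay-class transcript.

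**Figure D5:**
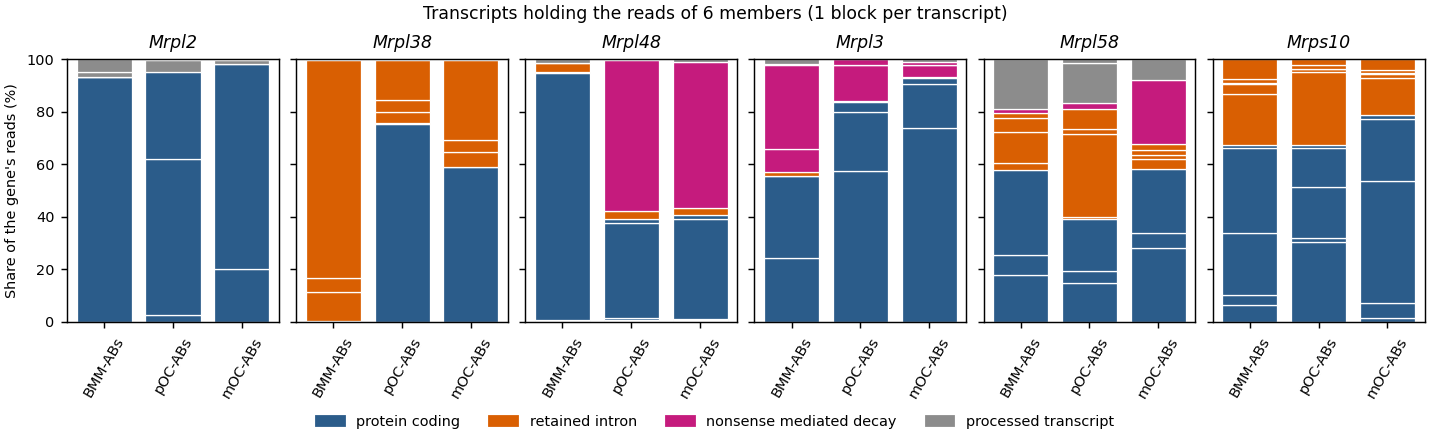
Share of each gene's reads (%) on its transcripts in each type of AB (1 library each) for the 6 members with the largest shifts, 1 block per transcript, coloured by annotated type. In Mrpl48 the decay-class share goes from 0% to 57.6% and 55.8%, and in Mrpl2 the protein_coding blocks change places.

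Reads were also assigned to related RNAs. The pseudogene Mrpl23-ps1, at another locus, had 250, 238 and 236 reads, more than the 160, 171 and 199 of Mrpl23, and the division of reads between such near-identical copies is uncertain. Mrpl48-ps had 123, 110 and 130 reads, and for neither pseudogene did an interval exclude 1. Of the listed lncRNA transcripts 41 overlapped 26 members and held 433, 302 and 234 reads together. The circRNA table held 1 junction with a member as host, in Mrps35 (chr6:147055852-147061492), with 8, 0 and 2 junction reads.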

How the data were processed

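RNA was measured in ABs of 3 cell types, 1 library each. The authors deposited, for each mRNA and lncRNA transcript, read counts and FPKM, and for circRNAs counts of junction reads and a SRPBM signal, scaled by the authors and left out here. FastQC, HISAT2, StringTie and GRCm38 are named in the submitters' processing notes, with versions not given in the sources used here. Deposited FPKM equalled reads per kb scaled by the mRNA total within 1% for 98.3 to 98.4% of values. Counts were summed per gene with GENCODE M21 (229 transcripts were not matched) and divided by the mRNA total. With 1 library per group there is no test. Ratios carry exact 95% binomial intervals (Clopper-Pearson), tested on simulated data, and 3 reads are 3.3e-05%, 4.06e-05% and 3.89e-05% of the mRNA reads. Calls are ratios above 2 or below 0.5, or intervals that exclude 1, among genes with at least 20 reads.

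The members and lists were chosen with earlier results of these data known. Members named were the 5 highest and 5 lowest by FPKM, the 6 highest and lowest ratios of each comparison, all past 2-fold, the 6 largest transcript shifts (at least 50 reads), those mostly outside protein_coding transcripts, the Mrps18 genes and structural groups. Mrpl4, Mrpl51, Mars2, the mt- genes named and the partners were chosen after their values were seen. Alternatives were other totals, size factors or the upper quartile, minimum reads, a pseudocount of 1, FPKM, and protein_coding transcripts only. Protein sequences were not analysed here. Python 3.11.15, pandas 2.3.3 and scipy 1.17.1 were used.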

Additional observations from a re-analysis of the deposited data

How the results depend on the processing

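With 1 library per group no replicate could be left out. No paired analysis was possible because each group has 1 library. Over 52 named members, each value in 3 comparisons (156 values), median-of-ratios size factors, the upper quartile, totals without mitochondrial and small RNA genes or of protein-coding genes, and a pseudocount of 1 moved none beyond its interval. With the total of both tables the medians in pOC-ABs and mOC-ABs against BMM-ABs fell to 0.09 and 0.13, 1 member passed 2-fold in each, the shares were 0.243%, 0.254% and 0.268%, and Mrpl12 and Mrpl19 in pOC-ABs turned to -0.02. The upper quartile put the mOC-AB median at 0.31. Shares were 0.352%, 0.438% and 0.417% without mitochondrial and small RNA genes and 0.378%, 0.481% and 0.46% of protein-coding genes. A pseudocount of 1 left 2 and 1 members past 2-fold. Shares of all genes past 2-fold on these other bases are not given here. From protein_coding transcripts only, 10, 7 and 2 members passed 2-fold in the 3 comparisons, the mOC-AB medians were 0.28 overall and 0.25 in the small subunit, Mrpl38 turned to 8.19 in mOC-ABs, Mrpl48 to -1.01 and -0.88, Mrpl58 to -0.13 in pOC-ABs and Mrps9 to -1.68 between mOC-ABs and pOC-ABs, where reads lie on other transcripts. By FPKM the protein_coding share was 84.6%, 87.5% and 88.8%, and Mrpl1 turned to -0.07 and Mrps25 to -0.18 in pOC-ABs, Mrpl3 to -0.08 in mOC-ABs, and Mrps14 to 0.30 and Mrps25 to 0.05 between mOC-ABs and pOC-ABs.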
